A study of Mus musculus with 2 samples.

Results

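Interferon receptors, interferon regulatory factors (IRFs) with Stat2, and interferon response genes were followed in small-intestinal organoids of wild-type mice cultured with RankL and without it. The members were 40 genes chosen by name in 3 classes, namely 6 receptor genes, 8 IRF and STAT factor genes and 26 response genes. They were found through the RefSeq accession of each array probe, which gave 54 probes for 38 of the 40 genes, out of 32196 genes or accessions with a probe on the array. Mx1 and Mx2, antiviral GTPases, had no probe whose accession matched. Of the 38 genes with a probe, 26 were measured, meaning that 1 of the RNAs, RankL or untreated, gave spots well above background on both arrays.

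The 2 groups were wild-type organoids treated with recombinant mouse RankL (50 to 200 ng/ml, with medium renewed on day 2 and day 5) and wild-type organoids without RankL. Both grew in crypt medium holding EGF, Noggin and R-spondin. The labels state no exact dose, harvest time or number of mice for these RNAs. The RNA pair was hybridised to 2 dual-colour arrays, the second a dye swap of the first, so the arrays are 1 replicate per group. No test was possible, and each ± gives the SD between the arrays, which is technical and holds no spread between cultures. Where RankL and untreated signals are said not to overlap, the same 2 arrays are compared, so this too is technical agreement. The share of all measured genes without such overlap was not counted.

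Interferons signal through receptor pairs on the cell surface. Type I interferons bind Ifnar1 and Ifnar2, interferon gamma binds Ifngr1 and Ifngr2, and type III interferons (interferon lambda) bind Ifnlr1 with Il10rb, a pair known for its role in gut epithelium of mice. Janus kinases on the receptors activate STAT factors, among them Stat2. Stat2 takes part with Irf9 in a complex that binds the interferon-stimulated response element (ISRE) in promoters of response genes, while STAT dimers bind the gamma-activated site (GAS). RankL acts through another receptor, RANK, which signals by NF-kB.

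The members did not move together. Oasl2, Oasl1 and Ddx58 of the response genes were higher with RankL, Ifnlr1 of the receptors and Irf8 of the factors were lower, and 21 of the 26 measured members were neither. Ratios are log2 values of RankL over untreated, and the size rule for a call asked for a mean of 1 or more in either direction (2-fold), with 0.5 or more in that direction on each array. By that rule 3 measured members (11.5%) were higher and 2 (7.69%) lower, against 5.47% and 2.50% of all 12877 measured genes. Ratios were above 0 on both arrays for 17 members, below 0 on both for 4 and of different sign for 5, against 37.3%, 35.1% and 27.6% of all measured genes. Ifnlr1 and Oasl2 passed the detection filter through 1 RNA alone, so that counts and medians over the measured members are descriptions. The median SD of the 2 arrays over the measured members was 0.14, from 0.017 for Bst2 to 0.49 for Il10rb.

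**Figure D1:**
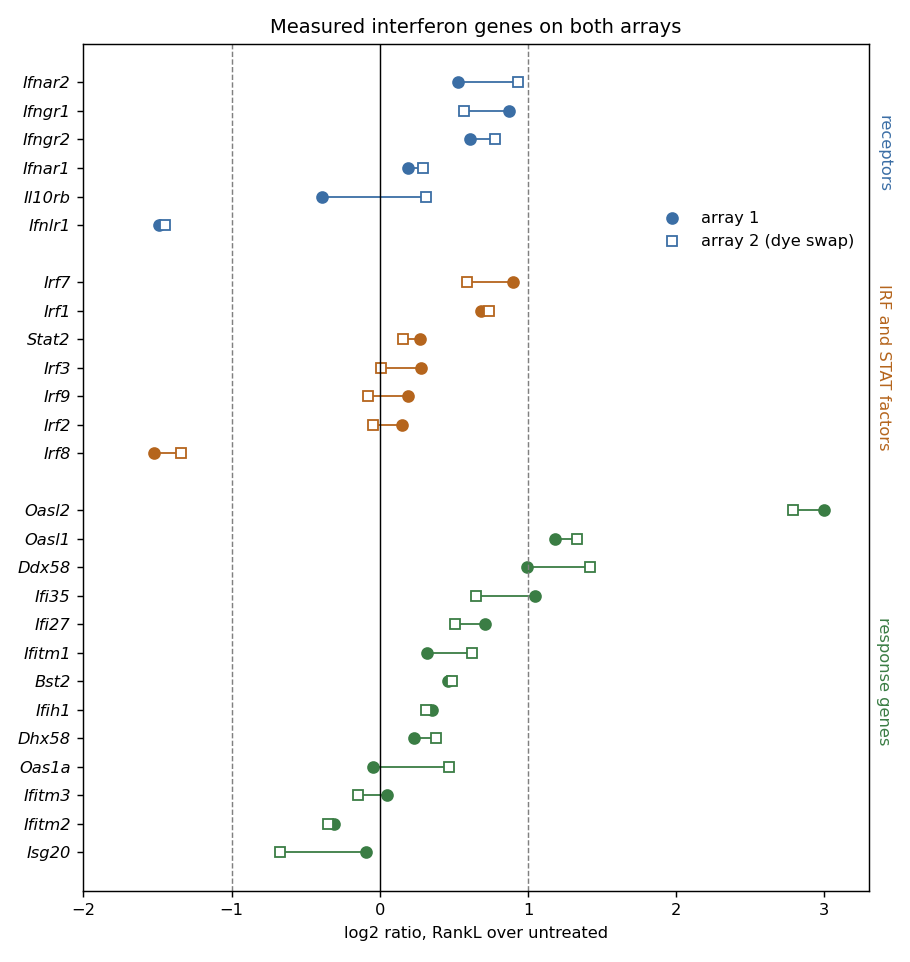
Log2 ratios of RankL over untreated (horizontal axis) for the 26 measured members in their 3 classes, with a filled circle for array 1 and an open square for array 2. Oasl2 lies near 3, Ifnlr1 and Irf8 lie below -1, and most other points fall between the dashed lines at -1 and 1, which mark 2-fold.

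The organoids read as epithelium. All 7 epithelial marker genes fixed for the check (such as Epcam and Vil1) were well above background in both RNAs. The list did not stand still, since Krt20, a keratin of differentiated gut epithelium, was higher with RankL at 2.40 ± 0.30, while the other 6 met no call and ranged from Krt18 at -0.92 to Vil1 at 0.81. The 6 M cell markers, among them Spib and Gp2, were all higher with RankL, and their summed signal was 60364 and 62597 with RankL, against 2530 and 1957 untreated. Of the markers with a probe, none of the 4 for T and NK cells, the 3 for B cells or the 6 for macrophages and dendritic cells was measured. The summed signal of those 6 was 416 and 407 with RankL, against 420 and 400 untreated. In fibroblasts and endothelium 1 of 4 was measured, Col1a2 at 0.17 ± 0.17. The M cell markers were higher in the same RNA pair that gives every value below, and their part in the results was not tested. In bulk RNA, fewer cells of a type and less RNA per cell cannot be told apart.

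Transcripts of the receptors for all 3 interferon types were detected. All 6 receptor genes were measured, and Ifnlr1, the chain that is specific to interferon lambda, was the only one past the rule. Its normalised log2 signal was 6.24 and 6.13 with RankL on arrays 1 and 2, against 7.72 and 7.58 untreated. The RankL spots were not well above background on either array, while both untreated spots were, and the groups did not overlap. The ratio was -1.47 ± 0.026, a bound of 2.77-fold lower. Such a bound compares the bright RNA with the array's faintest spot flagged well above background, or with the dim spot itself if brighter. The dim spots were brighter here, so the bound is the ratio itself and no strict lower limit. The ratio read -2.13 when the offset of the background correction was 16 in place of 50. It read -4.93 in the scanner software's own ratios, so the call held while its size depended on how dim signals were treated. The 250 bases before the RefSeq transcript start (build GRCm38.p6, 5′ to 3′) are shown because this is the receptor that was lower. They hold no match to the 3 motifs described further on.
Ifnlr1 (chr4:135686207-135686456, plus strand): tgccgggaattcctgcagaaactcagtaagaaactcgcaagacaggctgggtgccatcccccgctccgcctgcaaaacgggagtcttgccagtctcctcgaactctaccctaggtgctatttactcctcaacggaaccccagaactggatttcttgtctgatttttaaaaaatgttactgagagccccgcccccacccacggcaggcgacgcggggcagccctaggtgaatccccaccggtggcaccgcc

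Its partner Il10rb, which also serves receptors of interleukins, read -0.39 on array 1 and 0.31 on array 2, a mean of -0.043 ± 0.49. The arrays disagreed in sign, so no direction can be given for the shared chain. Among the receptors of the other interferons all 4 ratios were above 0 on both arrays, and none reached 2-fold. Ifngr1 was at 0.72 ± 0.21, with signals of 13.07 and 13.03 with RankL, against 12.20 and 12.46 untreated. Ifngr2 was at 0.69 ± 0.12, with 11.76 and 11.85 with RankL, against 11.15 and 11.08 untreated, and a second probe read 0.56. For both chains of the interferon gamma receptor the RankL and untreated signals did not overlap over the 2 arrays, which is technical agreement only. For the type I receptor, Ifnar2 was at 0.73 ± 0.28 (0.97 by another probe) and Ifnar1 at 0.24 ± 0.074. The scanner software's ratios put Ifnar2 at 1.07, past the rule. In the RefSeq order of protein-coding genes on chromosome 16, Ifnar2, Il10rb, Ifnar1 and Ifngr2 are direct neighbours, and their ratios ran from -0.043 for Il10rb to 0.73 for Ifnar2.

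Among the transcription factors, Irf8 was lower and no factor was higher by the rule. Irf8 is best known for its part in the development of myeloid cells and B cells. Its signal was 8.82 and 9.01 with RankL, against 10.35 and 10.36 untreated. All 4 spots were well above background and the groups did not overlap. The ratio was -1.43 ± 0.13, or 2.70-fold, while a second, dimmer Irf8 probe read -0.72 ± 0.14, in the same direction and short of the rule. The mean of both probes was -1.08. Macrophage and dendritic cell markers, as given above, were not well above background in either RNA. The promoter of Irf8 is shown as that of the factor that was lower, with capitals on 2 matches to the GAS-type motif. A second RefSeq start of the gene is not shown.
Irf8 (chr8:120736108-120736357, plus strand): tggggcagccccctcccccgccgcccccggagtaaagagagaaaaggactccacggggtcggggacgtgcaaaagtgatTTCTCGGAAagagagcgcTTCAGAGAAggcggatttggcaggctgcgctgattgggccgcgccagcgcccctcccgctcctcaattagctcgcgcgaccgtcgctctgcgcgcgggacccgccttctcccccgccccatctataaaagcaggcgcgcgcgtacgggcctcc

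Irf1 and Irf7, both of which amplify interferon responses, were the factors farthest above 0. Irf1 was at 0.71 ± 0.038, with 10.83 and 10.79 with RankL, against 10.14 and 10.06 untreated. Irf7 was at 0.74 ± 0.23, with 7.54 and 7.27 with RankL, against 6.63 and 6.68 untreated. For both genes each RankL signal was above each untreated one, but neither reached 2-fold. Irf7 passed the rule at an offset of 16 (1.01) and in the software's own ratios (1.56), and Irf1 did not reach 2-fold under any setting run.

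The other factors stayed near 0. The parts of the interferon-activated complex were Stat2 at 0.21 ± 0.077 and Irf9 at 0.057 ± 0.19. Irf3, the factor that starts interferon transcription after viral RNA or DNA is sensed, was at 0.15 ± 0.19, and Irf2, an antagonist of Irf1, at 0.053 ± 0.14. Irf9 and Irf2 changed sign between the arrays. Irf5 was not measured, since 1 of its 2 RankL spots and neither untreated spot was well above background.

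Response genes held the largest ratio of the 40, and also nearly all of the genes too dim to read. Of 24 with a probe, 13 (54.2%) were measured, compared with 56.7% of all 18337 gene symbols with a probe. The other 11 were Ifit1, Ifit2 and Ifit3, which bind viral RNA, the ubiquitin-like modifier Isg15 and its protease Usp18, the antiviral radical enzyme Rsad2 (viperin), the oligoadenylate synthetases Oas2 and Oas3, the GTPases Gbp2 and Gbp3, and Ifi44. By the brightest probe of each of these 11 genes, normalised log2 signals lay between 5.96 and 6.55 with RankL and between 5.73 and 6.50 untreated. The faintest spots flagged well above background lay between 6.09 and 6.21, depending on RNA and array. Isg15 was well above background in RankL RNA on array 1 only, and the other 10 on no array. The ratios of these probes, from -0.084 to 0.15, compare background with background and say nothing of a change. Further probes of Ifit2, Oas2, Oas3 and Rsad2 were not measured either, and the farthest from 0 was an Oas2 probe at -0.24.

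**Figure D2:**
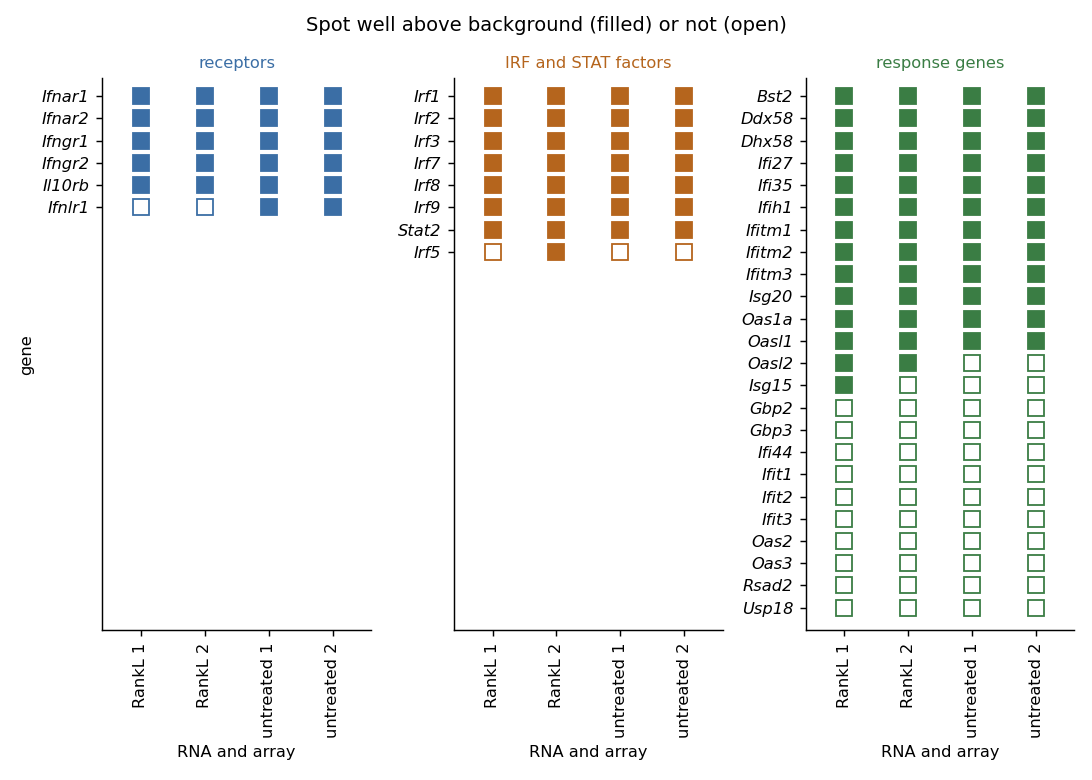
Each square is the spot of 1 gene in 1 RNA on 1 array, filled where the scanner software called it well above background. Receptors and factors are mostly filled, whereas 10 response genes are open in all 4 columns and Oasl2 is filled in the RankL columns alone.

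Of the 13 measured response genes, 3 (23.1%) were higher with RankL and 0 were lower, against 5.47% and 2.50% of all measured genes. Oasl2, among these 3, passed the detection filter through its RankL spots alone, which favours a higher call. Oasl2, an oligoadenylate synthetase-like protein, had signals of 9.29 and 9.25 with RankL, against 6.28 and 6.46 untreated. The RankL spots were well above background on both arrays and the untreated spots on neither. The ratio was 2.90 ± 0.15, a bound of 7.46-fold higher that was likewise the ratio itself. It read 3.57 at an offset of 16 and 4.88 in the software's own ratios, so its size too depended on the dim signals. Oasl1, known in mice as an inhibitor of Irf7 translation, had 9.79 and 9.74 with RankL, against 8.61 and 8.41 untreated. All its spots were well above background, the groups did not overlap, and the ratio was 1.25 ± 0.11 (2.39-fold). The settings run moved it between 1.16 and 1.43. Oasl2 and Oasl1 are direct neighbours on chromosome 5.

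Ddx58, which encodes the viral RNA sensor RIG-I, had 7.93 and 8.14 with RankL, against 6.94 and 6.72 untreated. The groups did not overlap, and the ratio was 1.21 ± 0.30, but array 1 alone read 0.99, just short of the rule, and array 2 alone 1.42. Of 4 Ddx58 probes, 3 were not measured and read between -0.068 and 0.074. The related sensors moved less. Ifih1 (MDA5) was at 0.33 ± 0.026 and Dhx58 (LGP2) at 0.31 ± 0.10, both above 0 on each array and short of 2-fold.

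**Figure D3:**
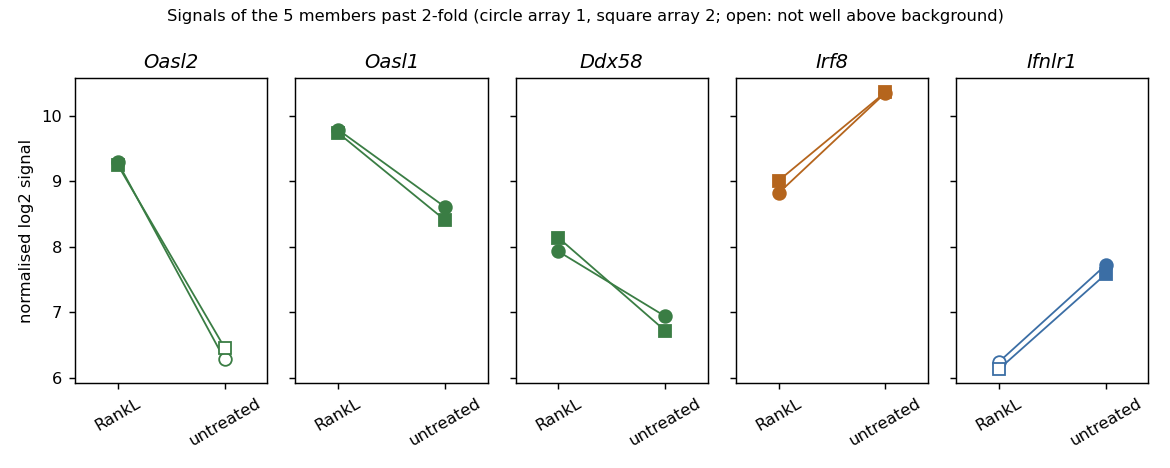
Normalised log2 signals (vertical axis) of the 5 members past the rule, RankL left and untreated right in each panel, with circles for array 1, squares for array 2 and open marks for spots not well above background. Both arrays run the same way in every panel, from Oasl2 (2.90) to Ifnlr1 (-1.47).

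Among the remaining measured response genes, Ifi35 was at 0.85 ± 0.29 and Ifi27 at 0.61 ± 0.14. Ifi35 read 1.05 on array 1 and 0.65 on array 2, so array 1 alone would call it higher. Bst2 (tetherin), which holds budding viruses at the cell surface, was at 0.47 ± 0.017. The Ifitm genes, membrane proteins that block virus entry, differed within the family. Ifitm1 was at 0.47 ± 0.21, Ifitm2 at -0.33 ± 0.029 with a second probe at -0.40, and Ifitm3 at -0.053 ± 0.14. Ifitm2, Ifitm1 and Ifitm3 are neighbours on chromosome 7 in that order, and Ifitm1 reached 1.04 with the scanner software's ratios. Oas1a, whose probe may also bind its close copies, read -0.045 on array 1 and 0.47 on array 2. The exonuclease gene Isg20 was at -0.38 ± 0.41, and another probe read -0.20. The arrays therefore gave Oas1a and Ifitm3 no common sign, and left Ifitm2 and Isg20 as the measured response genes below 0 on both.

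The medians of the classes depended on which probes were counted. The median ratio over measured members was 0.47 for receptors, 0.15 for IRF and STAT factors and 0.47 for response genes, against 0.0086 over all measured genes. For Oasl2 and Ifnlr1 the bound equalled the ratio, so putting them at their bounds could not change these medians and is no check of them. On arrays 1 and 2 the medians were 0.36 and 0.44 for receptors, 0.27 and 0.011 for factors, and 0.35 and 0.49 for response genes. Response genes lay 0.32 above the factors in the mean of the arrays, by 0.079 on array 1 and 0.48 on array 2, so the arrays disagreed on its size. With only probes well above background in both RNAs, the medians were 0.69 for receptors, 0.15 for factors and 0.40 for response genes. With dim probes included they were 0.47, 0.12 and 0.13 in the same order, so the distance between response genes and factors was nearly gone. Receptors spanned -1.47 to 0.73, factors -1.43 to 0.74 and response genes -0.38 to 2.90. Thus the downward calls lay among receptors and factors (1 of 6 and 1 of 7) and the upward calls among response genes (3 of 13), counts too small to set the classes apart. Ratios of at least 0.5 were found in 3 receptors, 2 factors and 5 response genes, together 38.5% of the measured members, compared with 13.2% of all measured genes.

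**Figure D4:**
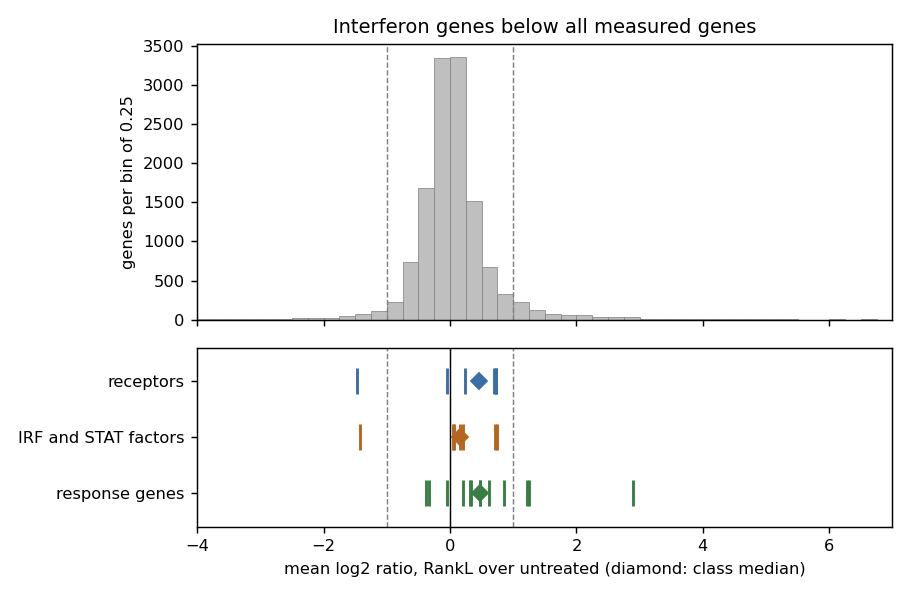
The upper panel counts all 12877 measured genes by mean log2 ratio in bins of 0.25, and the lower panel marks each measured member by a line and each class median by a diamond. Class medians of 0.47, 0.15 and 0.47 sit right of the peak, with Oasl2 as the far point on the right.

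The ISRE-type motif was found in promoters of response genes that were measured and of those that were not. The window ran from 250 bases before to 50 after each RefSeq start, and both strands were searched for an ISRE-type motif (GAAA, any 2 bases, then GAAA), a GAS-type motif (TTC, any 3 bases, then GAA) and an NF-kB-type motif (GGGAA, any 3 bases, then CC). A window was listed for 33 members, without Il10rb, Ifi27, Dhx58, Usp18, Oas2, Mx1 and Mx2. The ISRE-type motif was found in 13 of 20 response genes, 2 of 8 factors (Irf2 and Stat2) and 0 of 5 receptors, compared with 3.99% of all 27025 genes. It was present in 6 of 11 measured response genes and in 7 of 9 that were not measured. Of the 3 response genes that were higher, Ddx58 had a match, which begins at base 3 of the transcript, and Oasl1 and Oasl2 had none in this window. The GAS-type motif was in 11 of 33 members, among them Irf1, Irf8 and Ifi35, compared with 9.55% of all genes. The NF-kB-type motif was in 5 of 33 (Gbp2, Ifitm3, Ifngr2, Isg20 and Rsad2), compared with 6.59%. ISRE-type matches overlapped each other in Isg15, Gbp3, Bst2 and Oas1a, and a GAS-type match in Bst2 and Ifitm3. A match describes these letters only and is not a binding site.

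The promoters below are picked examples, namely 2 genes dim in both RNAs, Isg15 and Ifit1, and the neighbours that were higher, Oasl1 and Oasl2. They do not stand for all response genes. Ddx58, also higher, has an ISRE-type match past its start, and 6 of 11 measured response genes have a match. Each is the 250 bases before the start (GRCm38.p6, 5′ to 3′), with motif matches in capitals. Isg15 holds 3 ISRE-type matches that overlap in 1 run, and Ifit1 holds 2 that stand apart, while the lower-case sequences of Oasl1 and Oasl2 hold no match to the 3 motifs.
Isg15 (chr4:156200819-156201068, minus strand): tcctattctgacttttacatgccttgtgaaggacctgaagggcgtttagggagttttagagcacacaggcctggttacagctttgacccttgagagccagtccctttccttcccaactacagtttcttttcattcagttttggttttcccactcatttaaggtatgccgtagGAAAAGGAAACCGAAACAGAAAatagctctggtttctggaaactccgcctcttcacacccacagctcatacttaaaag
Ifit1 (chr19:34640639-34640888, plus strand): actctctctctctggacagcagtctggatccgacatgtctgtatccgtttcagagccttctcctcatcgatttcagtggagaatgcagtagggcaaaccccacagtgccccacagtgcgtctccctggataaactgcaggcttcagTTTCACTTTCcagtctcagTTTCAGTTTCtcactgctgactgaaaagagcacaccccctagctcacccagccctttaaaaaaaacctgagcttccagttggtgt
Oasl1 (chr5:114922990-114923239, plus strand): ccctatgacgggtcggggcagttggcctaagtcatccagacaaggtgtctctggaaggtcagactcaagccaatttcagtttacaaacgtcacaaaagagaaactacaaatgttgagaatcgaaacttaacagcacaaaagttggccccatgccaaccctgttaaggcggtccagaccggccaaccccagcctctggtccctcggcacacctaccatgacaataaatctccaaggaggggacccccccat
Oasl2 (chr5:114896684-114896933, plus strand): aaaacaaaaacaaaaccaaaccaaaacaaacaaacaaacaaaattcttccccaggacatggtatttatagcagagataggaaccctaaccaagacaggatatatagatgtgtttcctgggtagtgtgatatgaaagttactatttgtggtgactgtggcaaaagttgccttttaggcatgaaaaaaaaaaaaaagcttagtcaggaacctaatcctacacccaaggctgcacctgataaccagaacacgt

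**Figure D5:**
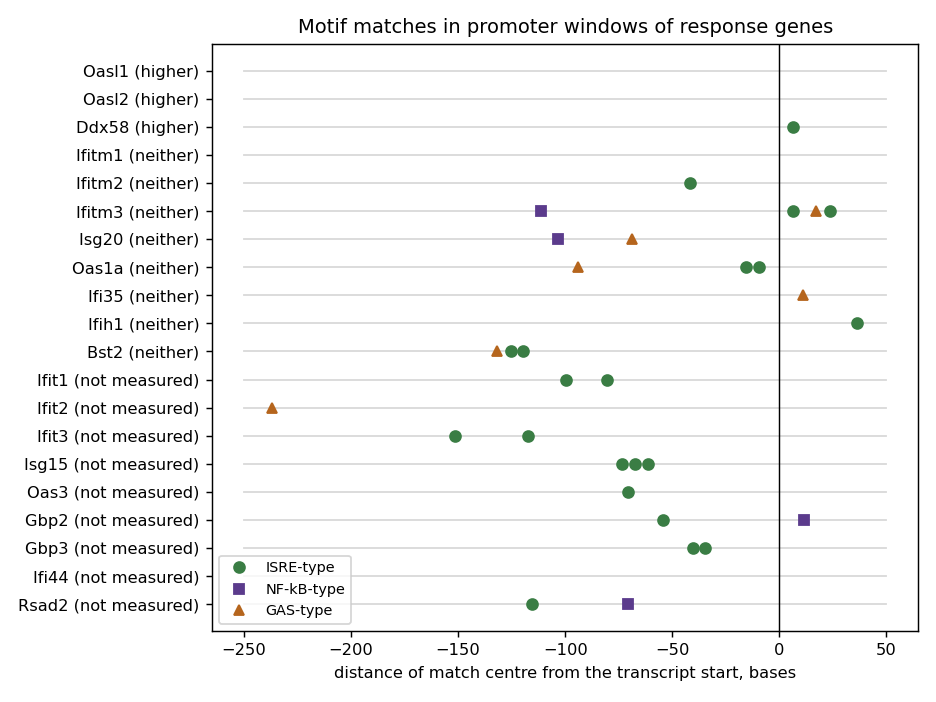
Distance in bases from the transcript start to the centre of each motif match, for the 20 response genes with a promoter window, with the call beside each name and all windows of a gene drawn on 1 line. Circles (ISRE-type) appear in 7 of 9 unmeasured genes, and the lines of Oasl1 and Oasl2 carry no mark.

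Genes around the members give the setting. None of the 8 listed interferon genes with a probe (Ifnb1, Ifng, Ifnl3, Ifnk, Ifne, Ifna2, Ifna4 and Ifna5) was measured. Ifna5 was well above background in RankL RNA on array 2 only, and the others on no array. Ifna1 and Ifnl2 had no probe, so this covers the 8 genes and not every interferon transcript. Of the 8 measured kinases and other STATs, Stat3, which carries interleukin signals, was higher at 1.09 ± 0.19. Stat5b, which carries growth hormone and cytokine signals, was lower at -1.01 ± 0.36, with a second, unmeasured probe at 0.23. The farthest that met no call was the kinase gene Jak1 at 0.74 ± 0.19. By the rule 1 of the 8 was higher and 1 lower, against 5.47% and 2.50% of all measured genes.

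Of the 8 measured feedback genes 7 were above 0 on both arrays, and 2 were higher and 0 lower by the rule. Over all measured genes 37.3% were above 0 on both arrays, 5.47% were higher and 2.50% lower. Cish, among the 7 at 0.30 ± 0.22, passed the detection filter through its RankL spots alone, which favours a ratio above 0. Socs1, the inhibitor of Janus kinases that restrains interferon receptors, had the largest ratio of any gene listed around the members, at 3.02 ± 0.34 (8.12-fold), with 2.78 on array 1 and 3.26 on array 2. The phosphatase gene Ptpn6 was at 1.09 ± 0.16, although a second probe read 0.26, and Socs3 was at 0.60 ± 0.033. Of 9 measured sensors and adaptors 1 was higher, Tmem173 (STING), the adaptor of DNA sensing, at 1.03 ± 0.20. Traf3 was the farthest of the others at 0.82 ± 0.0017. Of 4 measured IRF genes and IRF-binding proteins outside the members 0 met the rule, and the farthest was Irf2bp2 at -0.50 ± 0.15.

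Of 44 further response genes 40 had a probe and 20 were measured. Of these 20, 3 were higher and 1 lower, against 5.47% and 2.50% of all measured genes. Tapbp, which loads peptides on MHC class I, was at 1.55 ± 0.0075 (second probe 0.37), the ADP-ribosyltransferase Parp14 at 1.44 ± 0.064 (second probe 0.62) and the immunoproteasome subunit Psmb8 at 1.04 ± 0.18 (second probe 1.15). Ifi27l2a was lower at -1.88 ± 0.20, but a second measured probe read 0.43, so its probes disagreed in sign. The farthest that met no call was Plac8 at -0.92 ± 0.11. The median of the 20 was 0.24, below the 0.47 of the 13 measured response genes among the members. All 20 were well above background on both arrays in RankL RNA, but only 15 in untreated RNA. The rest, among them Cxcl10 and Sp100, passed the detection filter through RankL RNA alone, which favours ratios above 0. Both medians are therefore descriptions. The 4 genes that met the rule were well above background in both RNAs.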

How the data were processed

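Total RNA of the organoids was hybridised to 2 dual-colour Agilent mouse arrays, with the RankL RNA carrying Cy3 on the first and Cy5 on the second, per the labels. Deposited spot intensity values are median pixel brightness of spot and local background in each channel, not normalized, per the file headers, which name Agilent Feature Extraction 10.5.1.1 and a design on build mm9. Version 8.5.1.1 is named in the submitters' processing notes. The log10 ratios (red over green) deposited in the same files came from that software after its background subtraction and dye normalization, per the file headers. The authors' value table holds those log10 ratios, array 1 with its sign turned, within 5.0e-06, with a median of 0.0 in both columns.

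Background was corrected with normexp (offset 50) and ratios were normalized by loess within arrays, with the 1639 control spots at weight 0, in limma 3.58.1 under R 4.3.3. Outlier spots (170 and 164) were left out, spots of a probe averaged, and 0 were saturated. On the arrays, 38.3% and 43.4% of 43379 spots were well above background in RankL RNA and 39.6% and 40.1% in untreated RNA. A probe printed several times needed 0.5 of its spots well above background. Signals per RNA are log2 values after loess and Aquantile normalization. Both arrays share 1 RNA pair, which limits the precision. Both lay on 1 slide, so no batch could be tested.

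Names came from accessions matched without version to RefSeq of GRCm38.p6 (26890 of 41119 probes, 65.4%), and a gene took its brightest measured probe. Of the further pathway genes, those past the size rule and the farthest other one per list are named. Members, lists and rules were chosen with earlier results of these data known. Normexp's offset compresses ratios of dim genes. The steps were tested on simulated data whose changes were placed only on spots bright in untreated RNA. Signals as dim as those of Oasl2, Ddx58 and Ifnlr1 were not covered, and no call here rests on that test. Other normalizations, offsets, filters, probe choices, size limits and each array alone were tried. The value of a further gene of the pathway lists is left out, and it is not reported here.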

Additional observations from a re-analysis of the deposited data

How the results depend on the processing

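Of the 26 measured members, 21 kept their call under every alternative at the 2-fold rule in which they were measured. Ifnlr1 and Oasl2, counted among the 21, were not measured when both RNAs had to be well above background. The exceptions were Ddx58, Irf7, Ifnar2, Ifitm1 and Ifi35, whose values are given with each gene. No called member changed sign. Some members with ratios near 0, 6 in all, did so under some setting: Ifitm3, Il10rb, Irf2, Irf3, Irf9 and Oas1a. At 1.5-fold in place of 2-fold, 3 receptors, 2 factors and 5 response genes were higher, with 1395 genes higher and 934 lower on the whole array, against 704 and 322. An offset of 16 made 1 factor higher. The scanner software's ratios made 1 receptor, 1 factor and 4 response genes higher, in place of 0, 0 and 3, gave 1148 genes higher and 781 lower, and put the median of receptors at 0.52 and of response genes at 0.62. Counting only probes well above background in both RNAs left 0 receptors lower and a receptor median of 0.69, because that filter drops Ifnlr1, and it drops Oasl2 too. Median centring in place of loess gave a receptor median of 0.34. With dim probes included the median of response genes was 0.13, against 0.12 for factors, since 11 genes near 0 enter it. Array by array, the receptor median ran from 0.36 to 0.44, the factor median from 0.011 to 0.27 and the response gene median from 0.35 to 0.49. For the remaining differences the cause was not tested. Signal over background limits what can be read of the unmeasured genes, and no alternative changes the single RNA pair. No paired analysis was possible because the arrays hold 1 RNA pair.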
